A study of Mus musculus with 10 samples.

Results

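The genes described here are 36 mouse genes of the NF-kB pathway and of the cytokines and chemokines that it controls. They were chosen by gene symbol and read from a count table of 23056 symbols. The list was drawn up with earlier results of these data known. Shares of its genes set beside shares of all genes are therefore description and not a test. All 36 were in the table, and 32 had enough counts to be tested; Tnf, Ccl3, Ccl4 and Cxcl5 did not pass the filter on low counts. The samples were livers taken 12 hours after partial hepatectomy, in which the left lateral and median lobes are cut out under isoflurane and the rest of the liver regrows. Poly(A) RNA was sequenced from 6 livers labelled wild-type (WT) and 4 labelled IFRD1-KO (KO), all of them operated. Ifrd1 encodes a transcriptional co-regulator. The labels used here give no strain, sex, age or knockout design, and they number the libraries without naming the mice, so the p-values reflect variation among libraries, which may be technical in part.

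NF-kB is a family of paired transcription factors that IkB proteins hold in the cytoplasm. Signals from TNF, IL-1 or Toll-like receptors activate the IKK kinases, IkB is degraded, and the freed subunits enter the nucleus and switch on cytokines, chemokines, adhesion molecules and their own inhibitors. In the liver after hepatectomy, TNF from Kupffer cells, the resident macrophages, is known to activate NF-kB early and to prime hepatocytes to divide. Activation takes place on the proteins, so transcript levels do not measure it. In whole liver, fewer cells of a type and less RNA per cell cannot be told apart.

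NF-kB binds a short DNA element, and some of the promoters are shown because these genes are linked by it. The RefSeq promoter table (build GRCm38.p6) held 29 promoters of 26 of the 36 genes. In the 250 bases before each start, both strands were searched for a motif of GGG, any 2 bases and TTTCC, and for the broader kappa-B consensus, whose matches overlap it in part. The first was found in 8 of the 29 promoters and in 1.41% of all 32851 promoters, the second in 11 of the 29 and in 3.9% of all. Some genes have several promoters: by gene, 7 and 9 of the 26 had a match, against 1.65% and 4.46% of all genes. The genes were listed for their link to NF-kB, so a higher share follows from the choice and is not a finding. Matches lay in 9 of the 26 genes (Ccl9, Cxcl1, Cxcl2, Nfkb2, Nfkbia, Nfkbie, Rel, Tnfaip3 and Tnip1). Of the genes with a match, Tnip1 alone had a start whose following bases were not found in a GENCODE M21 transcript of the gene. The same held for Ccl3, Cxcl13, Icam1, Il18 and Tnfaip2, which had no match, so these starts are less sure. A match describes the letters and is not evidence of binding. The stretches below are given 5′ to 3′ on the strand of the gene, with every base of a match on either strand in capitals.
Cxcl1, chr5:90891125-90891214, plus strand: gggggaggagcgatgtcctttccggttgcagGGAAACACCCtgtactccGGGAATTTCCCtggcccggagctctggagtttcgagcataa
Cxcl2, chr5:90903779-90903868, plus strand: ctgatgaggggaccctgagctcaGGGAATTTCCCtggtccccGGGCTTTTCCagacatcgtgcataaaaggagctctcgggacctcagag
Nfkbia, chr12:55492648-55492707, minus strand: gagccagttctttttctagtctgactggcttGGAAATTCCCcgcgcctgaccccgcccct
Tnip1, chr11:54962971-54963030, minus strand: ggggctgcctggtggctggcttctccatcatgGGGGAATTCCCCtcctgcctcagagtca
Rel, chr11:23771030-23771089, minus strand: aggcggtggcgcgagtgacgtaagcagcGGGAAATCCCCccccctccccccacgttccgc
The 2 chemokine genes Cxcl1 and Cxcl2 are neighbours, 10755 bases apart, and their stretches share a run of 14 bases (GGGAATTTCCCTGG) that holds a match and starts 71 bases before the start of Cxcl1 and 97 bases before that of Cxcl2.

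None of the 32 tested genes passed the test between KO and WT over all genes (edgeR's quasi-likelihood test, Benjamini-Hochberg adjusted p under 0.05), where 182 of 13688 genes (1.33%) did. At an unadjusted p under 0.05 there were 13 of the 32 (40.6%), against 26% of all genes tested: 10 were lower in KO (14.4% of all genes) and 3 higher (11.6%). Of the 32 fold changes 21 (65.6%) were below 0, against 51.6% of all genes tested. The median log2 fold change was -0.16, against -0.02 over all genes tested. For 4 of the 32 (12.5%) no KO library fell within the WT range, as for 6.9% of all genes tested: Nfkbib, Tnip1 and Cxcl2 were lower in every KO library (3.29% of all genes) and Cxcl12 was higher (3.61%). Cxcl2 passed the filter on low counts only through its WT libraries. The filter favoured a lower KO level for it, so its place in these counts is not support for a difference. The coefficient of variation was larger in WT than in KO for 26 of the 32 (81.3%), near the 80.4% of all genes. Levels are given in CPM, counts scaled to a common library size after TMM normalisation.

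**Figure D1:**
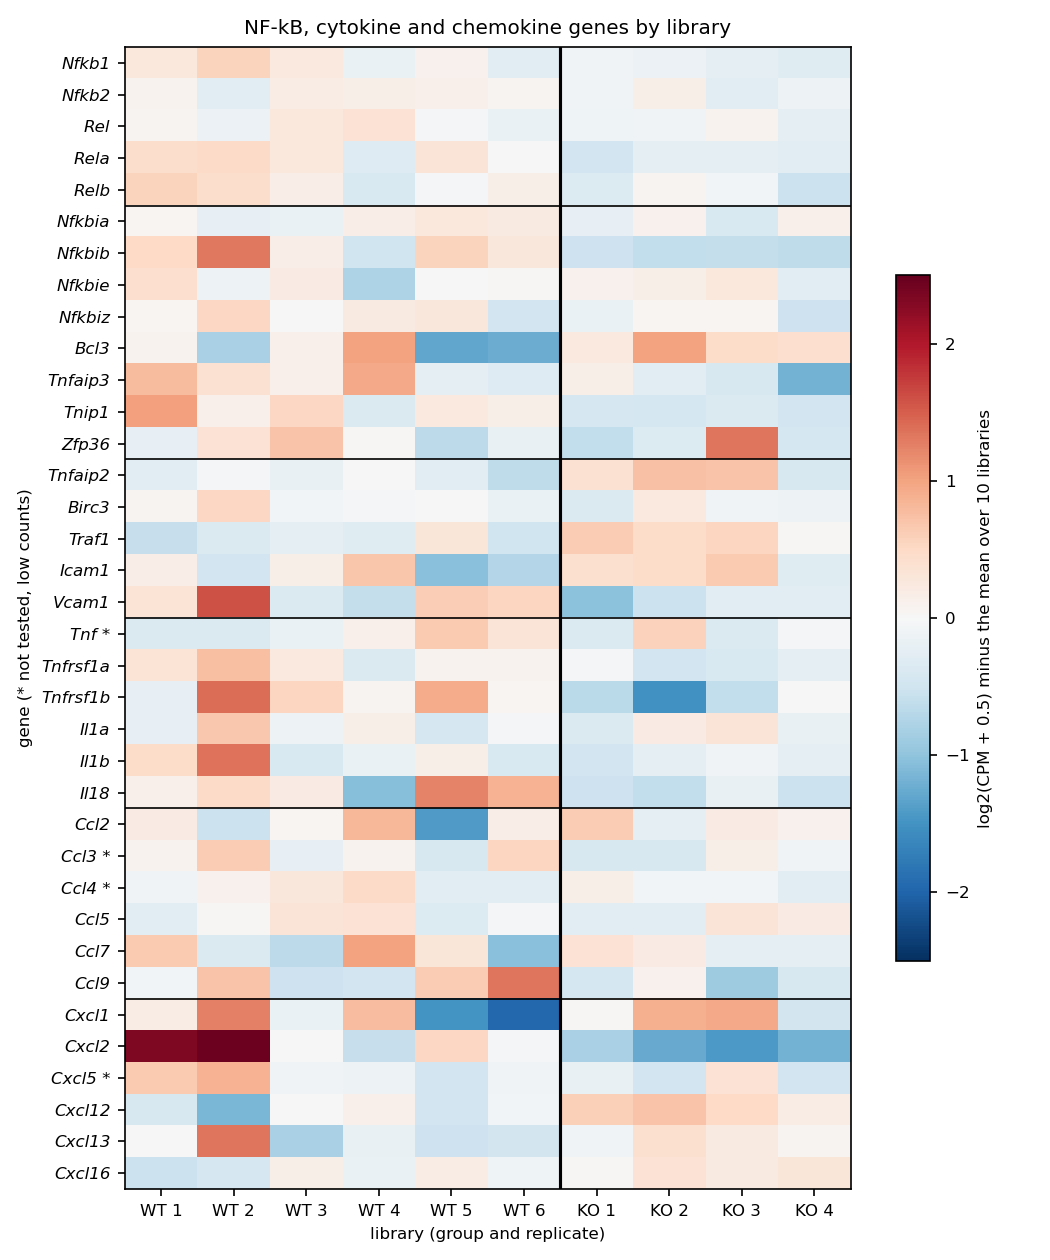
Level of each of the 36 genes in each library as log2(CPM + 0.5), centred on that gene's average of all 10 libraries, WT replicates 1 to 6 left and KO replicates 1 to 4 right of the black line, with genes grouped by role. Cxcl2 is high in WT replicates 1 and 2 and low in all 4 KO libraries, Cxcl12 is high in all 4 KO libraries, and Zfp36 stands out in KO replicate 3.

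Facts of the libraries stand beside these results. Totals lay between 12307446 and 17098012 counts. Ifrd1, the targeted gene, was lower in every KO library (58.7 ± 15.6 CPM in WT, 19.5 ± 4.38 CPM in KO, adjusted p = 0.0258). WT replicate 4 resembled the KO libraries in many genes: for 69.9% of all genes tested, and for 20 of the 32 described here (62.5%), its level was nearer the average of KO than that of the remaining WT libraries. This share was not worked out for the other WT libraries. The Ifrd1 level of WT replicate 4 was 49.6 CPM, within the range of the other WT libraries, against at most 22.6 CPM in KO. WT replicate 2 carried the most RNA of immune cells. The summed level of 11 neutrophil markers was 199 CPM there, between 10.7 and 41.8 CPM in the other WT libraries and between 7.07 and 17.95 CPM in KO, and the 5 neutrophil markers that were tested all lay below 0 (median -2.24 in log2), with none passing. The summed level of 12 Kupffer cell markers ran from 253 to 453 CPM in WT, highest in WT replicate 2, and from 215 to 274 CPM in KO, with 10 of 11 tested markers below 0 (median log2 fold change -1.02) and none passing. C6, a complement gene that hepatocytes also make, carried much of this sum and went the other way, at a mean of 170 CPM in KO and lowest in WT replicate 2 (76.6 CPM). Without C6, left out after its values were seen and so not tested, the other 11 Kupffer markers summed to 172 ± 113 CPM in WT (62.6 to 376) and 76.7 ± 19.4 CPM in KO (50.9 to 97.2). Clec4f, which marks Kupffer cells, was at 10.2 to 107 CPM in WT and 9.05 to 23.8 CPM in KO. With all their genes, none of the 9 marker lists passed after adjustment (two-sided exact permutation tests over 210 arrangements, smallest adjusted p = 0.343), among them sinusoidal endothelium (153 to 303 CPM in WT, 175 to 293 CPM in KO) and stellate cells (135 to 264 and 178 to 213 CPM). Markers of T and NK cells were at most 2.12 CPM in sum, with all 9 below 1 CPM in each library. Monocyte markers ran from 13.7 to 58.9 CPM in WT and from 17.95 to 24.1 CPM in KO, and those of bile duct cells from 32.0 to 283 CPM in WT and from 42.2 to 65.3 CPM in KO. In WT replicate 1, the highest, Spp1 alone gave 247 of the 283 CPM; without Spp1 the bile duct sum was 7.42 to 42.8 CPM in WT and 15.4 to 21.9 CPM in KO. B and plasma cell markers summed to 38.3 CPM in WT replicate 2, of which Jchain alone gave 34.3 CPM, and to at most 5.38 CPM elsewhere. Hepatocyte markers, which define the tissue, ran from 38440 to 81360 CPM in sum. They too were highest in WT replicate 2, where Alb gave 59960 CPM.

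Divided by exon length, the genes spanned more than 3 orders of magnitude on a log scale. The most abundant in WT, in CPM per kilobase of exon, were the RNA-decay factor gene Zfp36 (51.4 ± 17.5, SD, n = 6), the neutrophil chemokine Cxcl1 (49.2 ± 35.9), the TNF receptor Tnfrsf1a (42.0 ± 10.6), the inhibitor Nfkbia (21.4 ± 2.998), Ccl9 (18.7 ± 9.85), Rela (17.04 ± 3.30) and Nfkbib (16.7 ± 7.22). The first 3 overlapped widely, so their order is not settled. The lowest on this scale was the adaptor Traf1, at 0.0422 ± 0.0238. The length counts every annotated exon of a gene, 8.82 kilobases for Traf1, and can exceed that of the transcript present. In mean WT CPM, Traf1 (0.372) was above Cxcl5 (0.299), Ccl3 (0.245), Tnf (0.185) and Ccl4 (0.131). Rela, which encodes the p65 subunit, was above the other subunit genes, at 17.04 against 2.13 for Nfkb2, 2.08 for Nfkb1, 1.04 for Relb and 0.667 for Rel on the same scale. The gap depends on the lengths used: in mean WT CPM, Rela (3.07 kilobases) was at 52.3 and Nfkb1 (12.06 kilobases) at 25.1. Tnfrsf1a was above Tnfrsf1b (42.0 against 10.03), while their ligand Tnf was at 0.113 ± 0.124.

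**Figure D2:**
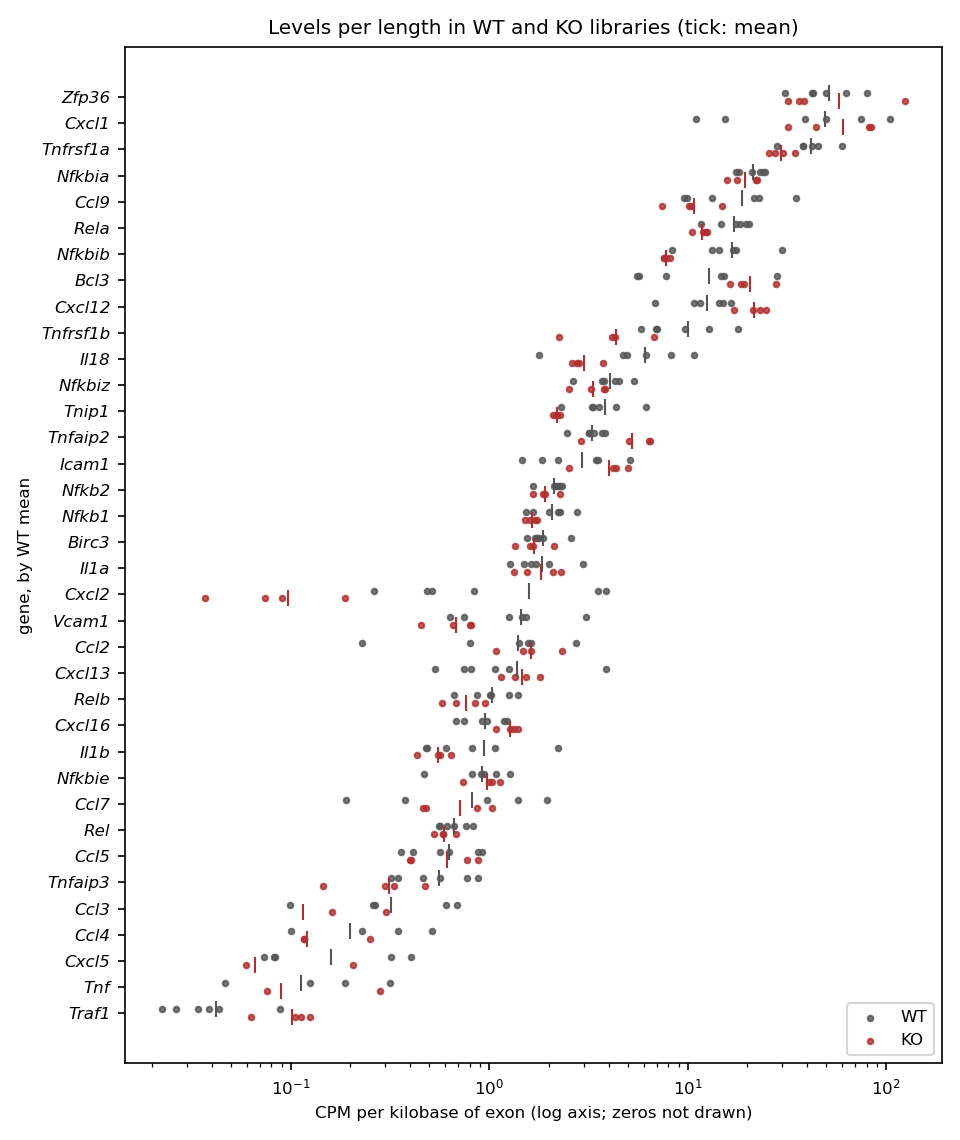
Level of each gene divided by its exon length (CPM per kilobase, log axis, zeros not drawn), 1 point per WT (grey) or KO (red) library and a tick at each group mean, ordered by the WT mean. Zfp36, Cxcl1 and Tnfrsf1a lead the order, and Tnf and Traf1 close it.

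The 5 subunit genes all had fold changes below 0, and none passed the test. Rela levels in WT ran from 35.7 CPM through a median of 55.1 to 62.3 CPM. The KO libraries were at 32.2, 38.4, 38.2 and 36.6 CPM. The groups overlapped only through WT replicate 4, the lowest WT library at 35.7 CPM, as the others were at 45.1 CPM or above. The log2 fold change of Rela was -0.53 (SE 0.17, adjusted p = 0.0919). Nfkb1, which encodes the p105 precursor of p50, averaged 25.1 ± 5.45 CPM in WT against 19.8 ± 1.26 CPM in KO (adjusted p = 0.224, log2 fold change -0.34, SE 0.17). Nfkb2, the p100 precursor of p52, ran from 7.64 through a median of 10.1 to 10.6 CPM in WT and was at 8.72, 10.4, 7.61 and 8.52 CPM in KO, so that its groups overlapped (adjusted p = 0.590, log2 fold change -0.15, SE 0.16). WT replicate 2 was its lowest WT library, apart from the other WT libraries at 9.74 to 10.6 CPM. Relb, the partner of p52, was at 4.03 ± 1.02 and 2.97 ± 0.65 CPM, and Rel, a subunit of lymphoid and myeloid cells, at 4.98 ± 0.83 and 4.43 ± 0.48 CPM, with adjusted p of 0.306 and 0.625.

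Among the 8 genes of IkB proteins and feedback inhibitors, Nfkbib and Tnip1 stood out. Nfkbib encodes IkB-beta, an inhibitor that, unlike IkB-alpha, is not known for quick resynthesis. It ran from 18.1 through a median of 34 to 64.8 CPM in WT, and was at 17.7, 16.6, 16.9 and 16.4 CPM in KO. Every KO library was below every WT library, by little in the case of WT replicate 4 at 18.1 CPM, and the KO libraries lay close together. This gave a log2 fold change of -1.10 (SE 0.28, adjusted p = 0.0609), and it was -0.86 without WT replicate 2, which had the highest level. Exons of Nfkbib (chromosome 7, 28758251 to 28767512) share 356 bases with exons of genes on the other strand, Ccer2 and Sirt2, and the strand setting of the counting is not given in the sources used here. The overlap with genes on the other strand was larger in Nfkb2 (830 bases), Cxcl16 (552 bases) and Icam1 (511 bases).

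Tnip1 encodes ABIN1, which helps the deubiquitinase A20 to damp NF-kB signals. It ran from 8.10 through a median of 12.3 to 21.9 CPM in WT, and was at 7.78, 7.71, 8.07 and 7.40 CPM in KO. The groups did not overlap, but WT replicate 4 at 8.10 CPM lay beside the highest KO library at 8.07 CPM. As a log2 fold change that came to -0.81 (SE 0.24, adjusted p = 0.0800). Tnfaip3, the gene of A20 itself, ran from 2.32 through a median of 3.72 to 6.33 CPM in WT and was at 3.42, 2.39, 2.15 and 1.06 CPM in KO. Here WT replicate 4 had the highest level and WT replicates 5 and 6 the lowest of WT, and the groups overlapped (adjusted p = 0.187, log2 fold change -0.84, SE 0.38).

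Nfkbia, the gene of IkB-alpha and a textbook NF-kB target, overlapped between the groups, at 34.5 ± 4.83 CPM in WT against 31.4 ± 5.33 CPM in KO (adjusted p = 0.606, log2 fold change -0.14, SE 0.16). Its spread was narrow, with WT libraries from 28.3 to 39.6 CPM and KO libraries from 25.3 to 36.1 CPM. The inhibitor Nfkbie was at 2.79 ± 0.83 and 2.97 ± 0.52 CPM, and Nfkbiz, a nuclear IkB protein that helps to induce secondary response genes, at 20.3 ± 4.56 and 16.8 ± 3.03 CPM, with adjusted p of 0.874 and 0.393.

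Bcl3, a nuclear IkB protein that binds p50 and p52, was uneven in WT: 36.5, 19.3, 37.7, 69.6, 13.7 and 14.2 CPM in replicates 1 to 6. The KO libraries were at 40.6, 69.1, 47.6 and 46.1 CPM, above each WT library except replicate 4, which had the highest level of all 10. Bcl3 had a log2 fold change of 0.67 (SE 0.42, adjusted p = 0.325), which was 1.06 without WT replicate 4 and 0.32 without WT replicates 5 and 6. Exons of Bcl3 share 161 bases with an antisense gene. Zfp36, whose protein tristetraprolin speeds the decay of cytokine mRNAs, ran from 107 through a median of 161 to 278 CPM in WT and was at 111, 134, 431 and 126 CPM in KO. KO replicate 3 alone was above all WT libraries, and the other 3 KO libraries were at or below 134 CPM. This gave a log2 fold change of 0.17 (SE 0.39, adjusted p = 0.817) with all libraries and -0.53 without KO replicate 3.

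Of the 5 survival and adhesion genes, 3 had fold changes above 0 and 2 below. Tnfaip2, a TNF-induced gene, ran from 12.3 through a median of 16.4 to 19.1 CPM in WT and was at 25.3, 32.4, 31.8 and 14.6 CPM in KO. The first 3 KO libraries were above all WT libraries, and KO replicate 4 lay within the WT range (adjusted p = 0.0941, log2 fold change 0.66, SE 0.21). Its exons share 314 bases with an antisense gene. Traf1, an adaptor of TNF receptors, was barely detected. Its 29 counts in 6 WT libraries gave 0.198 to 0.777 CPM with a median of 0.321, against 54 counts in 4 KO libraries and 1.103, 0.925, 0.999 and 0.560 CPM (adjusted p = 0.1000, log2 fold change 1.27, SE 0.42). KO replicates 1 to 3 were above all WT libraries, and KO replicate 4 lay below WT replicate 5, which stood apart from the other WT libraries.

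The 2 adhesion molecules that leukocytes bind on endothelium differed in direction. Vcam1 ran from 5.65 through a median of 12.0 to 27.4 CPM in WT and was at 4.03, 5.86, 7.07 and 7.15 CPM in KO. The highest WT level came from WT replicate 2, the library with the most neutrophil and Kupffer cell RNA, and the low WT replicates 3 and 4 lay within the KO range. As a log2 fold change that came to -1.10 (SE 0.40, adjusted p = 0.119), and -0.73 without WT replicate 2. The part of immune cell RNA in this difference was not tested. Icam1 averaged 12.8 ± 5.93 CPM in WT against 17.5 ± 4.58 CPM in KO (adjusted p = 0.398, log2 fold change 0.44, SE 0.32). Like Bcl3, it was lowest in WT replicates 5 and 6 (6.39 and 8.04 CPM) and highest in WT replicate 4 (22.3 CPM). The log2 fold change of Icam1 was 0.16 without WT replicates 5 and 6 and 0.68 without WT replicate 4. Birc3, an inhibitor of apoptosis, ran from 7.81 through a median of 8.80 to 12.9 CPM in WT, highest in WT replicate 2, and was at 6.79, 10.6, 8.30 and 8.02 CPM in KO (adjusted p = 0.649, log2 fold change -0.15, SE 0.19), so that the groups overlapped.

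The 5 tested genes of the TNF and IL-1 group had fold changes below 0, and none passed. Tnf itself had 0 to 6 counts in each library, 14 in WT and 8 in KO. Libraries with 0 counts allow up to 3 counts, which is 0.166 to 0.259 CPM over the 10 libraries, counting error only, so a difference was not detectable at this depth. Its receptors were well measured. Tnfrsf1b, the TNF receptor of immune and endothelial cells, ran from 22.2 through a median of 32.0 to 68.1 CPM in WT and was at 15.9, 8.63, 16.4 and 25.9 CPM in KO. Of the KO libraries 3 were below all WT libraries, and KO replicate 4 was above WT replicate 1 (adjusted p = 0.0829, log2 fold change -1.19, SE 0.36). The highest WT level was again in WT replicate 2, and the log2 fold change was -0.95 without it. Tnfrsf1a, the receptor found on most cells including hepatocytes, ran from 72.7 through a median of 104 to 156 CPM in WT and was at 89.8, 67.0, 71.7 and 78.6 CPM in KO. WT replicate 4 at 72.7 CPM was the only WT library within the KO range, and WT replicate 2 had the highest level (adjusted p = 0.137, log2 fold change -0.50, SE 0.20, and -0.38 without WT replicate 2).

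Il18 encodes a cytokine of the IL-1 family that is made as a precursor and cut by caspase-1. It ran from 1.84 through a median of 5.74 to 11.1 CPM in WT and was at 2.92, 2.70, 3.84 and 2.86 CPM in KO. WT replicate 4 had the lowest level of all 10 libraries, and the other WT libraries were above every KO library (adjusted p = 0.133, log2 fold change -1.03, SE 0.39). Il1b, the inflammasome-processed IL-1, ran from 0.917 through a median of 1.35 to 4.23 CPM in WT and was at 0.828, 1.08, 1.23 and 1.06 CPM in KO. WT replicate 2 stood apart in Il1b, and the other WT libraries were at or below 2.05 CPM. Its log2 fold change of -0.79 (SE 0.46, adjusted p = 0.293) became -0.34 without WT replicate 2. Il1a was at 3.66 ± 1.197 and 3.60 ± 0.89 CPM (adjusted p = 0.961).

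CC chemokines, which draw monocytes and lymphocytes, were low except for Ccl9. They lie in 2 clusters on chromosome 11, Ccl2 and Ccl7 between 82035571 and 82047525 and the other 4 between 83525778 and 83664683. Ccl9 averaged 57.0 ± 30.0 CPM in WT against 32.7 ± 9.46 CPM in KO (adjusted p = 0.188, log2 fold change -0.80, SE 0.36). Its WT libraries ran from 29.2 CPM in replicate 3 to 107 CPM in replicate 6 and its KO libraries from 22.6 to 45.5 CPM, so that the groups overlapped. Without WT replicates 5 and 6 the log2 fold change of Ccl9 was -0.38, and it was -0.53 without WT replicate 6 alone. Ccl2, the main attractant of CCR2-positive monocytes, was at 1.59 ± 0.97 and 1.85 ± 0.59 CPM (adjusted p = 0.811, log2 fold change 0.22, SE 0.48). Ccl7 and Ccl5 were below 1.6 CPM in each library, with adjusted p of 0.886 and 0.964. Ccl3 had 20 counts in WT and 5 in KO, and Ccl4 11 and 5, too few for the test.

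The CXC chemokines held the largest fold change of the tested genes, in Cxcl2, and one that went the other way, in Cxcl12. Cxcl2 encodes a neutrophil attractant that acts through CXCR2. Its WT levels were 7.34, 8.02, 1.07, 0.544, 1.73 and 1.01 CPM in replicates 1 to 6, against 0.386, 0.154, 0.0768 and 0.187 CPM in KO. All KO libraries were below all WT libraries, although WT replicates 1 and 2 held 217 of the 272 WT counts and the KO libraries had 13 counts in all. Cxcl2 passed the filter on low counts through its WT libraries, as KO replicates 1 to 4 held 7, 2, 1 and 3 counts. Without WT replicates 5 and 6 it did not pass that filter. KO replicates 2 and 3 were below the level of 3 counts (0.231 and 0.2305 CPM). The log2 fold change of Cxcl2 was -3.91 (SE 0.93, adjusted p = 0.0553), and its size rests on these few KO counts. Cxcl1, its neighbour and a ligand of the same receptor, did not show this: the WT libraries were at 92.9, 196, 73.4, 141, 29.0 and 20.6 CPM and the KO libraries at 83.4, 153, 158 and 59.95 CPM (adjusted p = 0.769, log2 fold change 0.30, SE 0.56). The KO libraries lay within the WT range, and WT replicates 5 and 6 were lowest, as for Bcl3 and Icam1. Without these 2 libraries the log2 fold change of Cxcl1 was -0.15. Per 1000 counts of Cxcl1 there were 78.9, 40.8, 14.6, 3.87, 59.5 and 48.9 counts of Cxcl2 in WT and 4.63, 1.01, 0.486 and 3.11 in KO. By this ratio WT replicate 4 lay below KO replicate 1, and the other 5 WT libraries were above every KO library. The ratio was chosen after its values were seen and was not tested. WT replicates 1 and 2, highest in Cxcl2, were also highest in summed neutrophil markers (41.8 and 199 CPM). The part of these cells in the result was not tested. Cxcl5, from the same cluster, had 25 counts in WT and 7 in KO.

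Cxcl12 (chromosome 6, 117168535 to 117181367) encodes the CXCR4 ligand that stromal and sinusoidal endothelial cells make. WT levels ran from 56.0 through a median of 106 to 135 CPM, and the KO libraries were at 188, 203, 175 and 141 CPM. Every KO library was above every WT library, and WT replicate 4 at 135 CPM and KO replicate 4 at 141 CPM lay closest. As a log2 fold change that came to 0.79 (SE 0.22, adjusted p = 0.0715), a fitted 1.72-fold difference. The summed markers of sinusoidal endothelium and of stellate cells, given above, overlapped between the groups, with log2 differences of 0.02 and 0.09. Single endothelial markers were uneven: 7 of 10 had fold changes above 0 (median 0.36 in log2), and Stab1, with a log2 fold change of -0.39, was the largest part of the sum in each library. Fcgr2b passed the test as higher in KO (log2 fold change 1.03), Clec4g had a log2 fold change of 0.80 (adjusted p = 0.0617), and Lyve1 had one of -1.77 (adjusted p = 0.0642) without overlap. Of the 10 stellate markers 7 were above 0 (median 0.11) and none passed. The part of these cells in the Cxcl12 difference was not tested. Cxcl13, a B cell attractant, ran from 0.611 through a median of 1.08 to 4.46 CPM in WT and was at 1.32, 2.08, 1.77 and 1.56 CPM in KO. WT replicate 2, which also held the most B and plasma cell marker RNA, mostly Jchain, had the highest level. The other WT libraries were at or below 1.45 CPM (adjusted p = 0.945, log2 fold change 0.07, SE 0.50, and 0.70 without WT replicate 2). Cxcl16, the CXCR6 ligand, was at 2.89 ± 0.67 and 3.84 ± 0.42 CPM (adjusted p = 0.298).

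**Figure D3:**
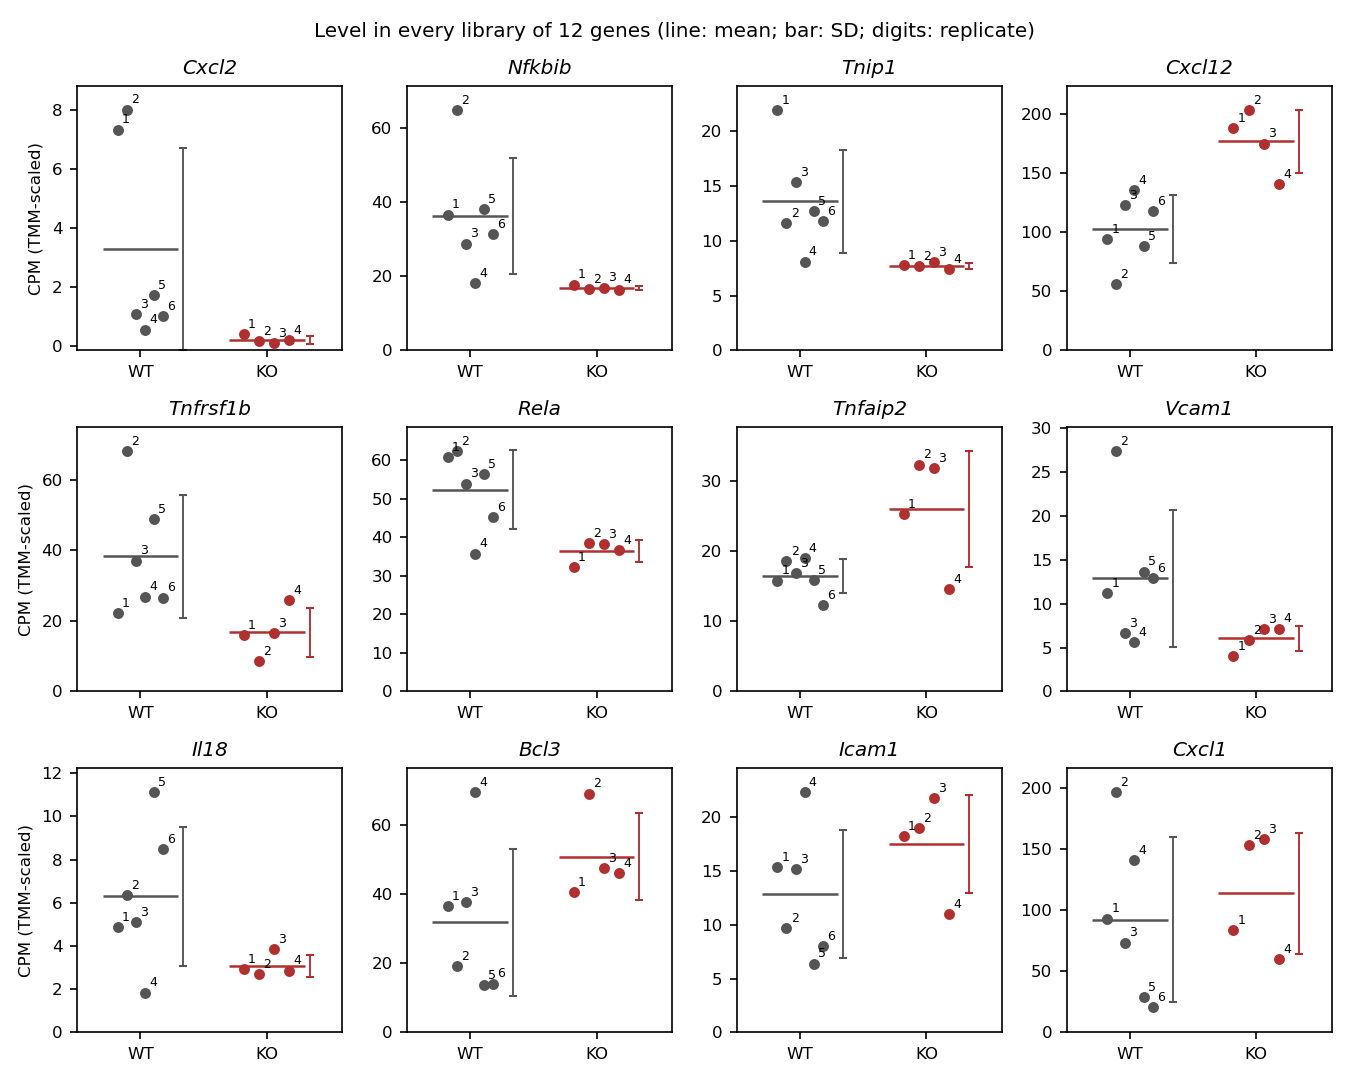
CPM of 12 genes in each WT (grey) and KO (red) library, digits giving the replicate, with a line at the group mean and a bar of 1 SD. WT replicate 4 lies next to or within the KO libraries in Nfkbib, Tnip1, Rela and Vcam1, WT replicate 2 is highest in Nfkbib, Tnfrsf1b and Vcam1, and WT replicates 5 and 6 are lowest of WT in Bcl3, Icam1 and Cxcl1.

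The number of calls depended on WT replicate 4 and on the test used. Without WT replicate 4, 11 of 29 tested genes (37.9%) passed, against 21.4% of all genes tested: Bcl3, Tnfaip2 and Cxcl12 higher (10.5% of all genes), and Rela, Nfkbib, Tnip1, Vcam1, Tnfrsf1a, Tnfrsf1b, Il18 and Cxcl2 lower in KO (10.9%). Without any other single library none passed, and over the whole table between 0 and 55 genes did. DESeq2 on all libraries called 7 of the 32, where it called 11.9% of all genes: Rela, Nfkbib, Tnip1, Vcam1, Tnfrsf1b and Cxcl2 lower (7.61% of all genes) and Cxcl12 higher (4.24%). Cxcl2, counted in the 11 and in the 7, passed the filter on low counts only through its WT libraries. Limma-voom called none of the 32, where it called 2.32% of all genes. None of the 32 was called with the replicate numbers as a block (0.00731% of all genes) or without WT replicates 5 and 6 (0.0299%). The direction was the same in each of the alternatives that could measure the gene for all 11 genes called without WT replicate 4, and the lowest and highest adjusted p over the settings run were 1.46e-04 and 0.163 for Cxcl2, 0.00317 and 0.166 for Nfkbib, 0.00961 and 0.186 for Tnip1, and 0.0131 and 0.187 for Cxcl12.

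**Figure D4:**
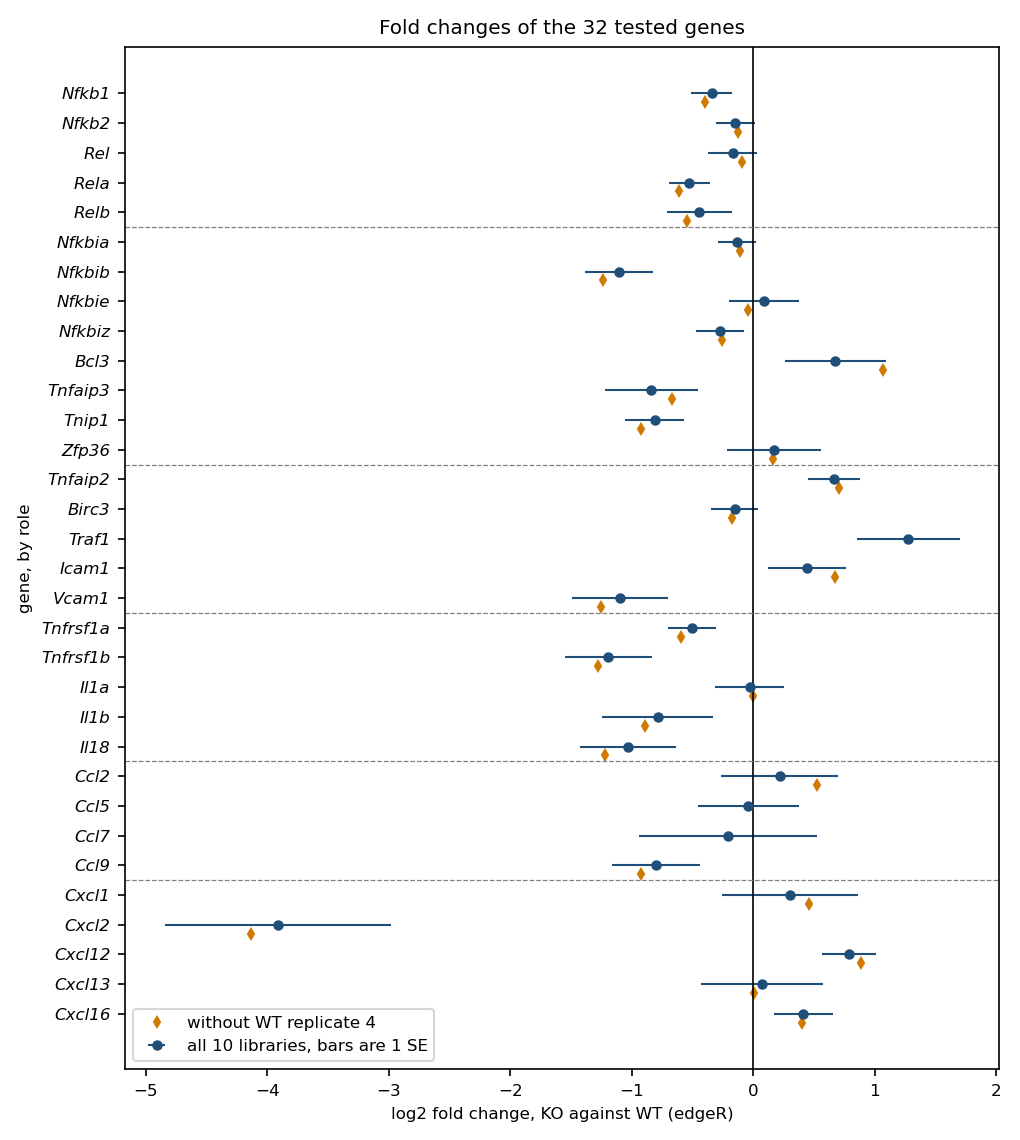
Log2 fold change of KO against WT for the 32 tested genes by role, blue points with bars of 1 standard error for all 10 libraries and orange diamonds without WT replicate 4; Traf1, Ccl5 and Ccl7 have no diamond because they did not pass the filter on low counts there. Cxcl2 lies farthest from 0 at -3.91, and the 5 subunit genes all lie below 0.

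The rest of the pathway was read from 4 further lists of 78 genes, of which 60 were tested, and none of the 60 passed, where 1.33% of all genes did. These lists too were chosen with earlier results of these data known, so their shares are description only. Of their fold changes 44 (73.3%) were below 0, against 51.6% of all genes tested (median log2 fold change -0.25, against -0.02). Without overlap between the groups were 8 of the 60 (13.3%), against 6.9% of all genes, with 6 of them lower in KO (3.29% of all genes). In the list of IKK complex and kinases, 9 of 11 fold changes were below 0. Map3k8, the TPL2 kinase that p105 holds inactive, averaged 8.15 ± 4.60 CPM in WT against 2.89 ± 0.86 CPM in KO (log2 fold change -1.50, adjusted p = 0.0730). Ikbkb, the catalytic IKK-beta, was at 63.1 ± 9.18 and 47.0 ± 7.53 CPM (-0.43, adjusted p = 0.124), without overlap between the groups. Tab1, a TAK1 partner, was at 9.29 ± 2.24 and 6.34 ± 1.31 CPM (-0.55, adjusted p = 0.142). Of 22 tested adaptors and ubiquitin enzymes 15 had fold changes below 0. Traf6, the ubiquitin ligase that passes on IL-1 and Toll signals, was at 19.2 ± 4.12 and 11.9 ± 1.19 CPM (-0.70, adjusted p = 0.0650), and the kinase Irak1 upstream of it at 77.8 ± 21.2 and 50.8 ± 1.94 CPM (-0.61, adjusted p = 0.0875). Ticam1, the adaptor of TLR3 and TLR4, was at 18.3 ± 2.79 and 13.6 ± 0.70 CPM (-0.44, adjusted p = 0.108). Traf6, Irak1 and Ticam1 were lower in every KO library than in any WT library.

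Of 13 tested receptor genes 11 had fold changes below 0. Cd14, the lipopolysaccharide co-receptor of myeloid cells that hepatocytes can also make, was at 217, 522, 33.7, 11.8, 32.5 and 12.7 CPM in WT replicates 1 to 6 and at 5.30, 2.23, 3.92 and 8.71 CPM in KO (adjusted p = 0.0678, log2 fold change -4.77, SE 1.26). The groups did not overlap, and WT replicates 1 and 2 were highest, as in Cxcl2. Il1r1, the signalling IL-1 receptor, was at 432 ± 110 and 231 ± 79.1 CPM (-0.90, adjusted p = 0.0705), and Tnfrsf12a, the TWEAK receptor, at 141 ± 66.6 and 66.9 ± 15.5 CPM (-1.07, adjusted p = 0.0952). Il1rap, named after its values were seen, went the other way without overlap, at 70.5 ± 13.2 and 94.7 ± 6.99 CPM (0.43, adjusted p = 0.132). Of 14 tested chemokine receptors and other cytokines 9 had fold changes below 0. Ccl6 was at 24.6 ± 17.97 and 7.12 ± 1.52 CPM (-1.79, adjusted p = 0.0713) and Cxcr2, the receptor of Cxcl1 and Cxcl2 on neutrophils, at 1.47 ± 1.33 and 0.376 ± 0.18 CPM (-1.90, adjusted p = 0.101), both highest in WT replicate 2. Cxcl11, a CXCR3 ligand induced by interferon, was higher in every KO library (5.91 to 8.47 CPM) than in any WT library (0.0756 to 5.24 CPM), with a log2 fold change of 1.79 and an adjusted p of 0.105. Il6, named after its values were seen, had 8 counts in WT and 0 in KO, which was too few to compare.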

How the data were processed

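The authors deposited raw read counts per gene symbol, 1 column per library, with 0 columns left out here. The tools STAR, HTSeq and DESeq2 and build mm10 are named, per the submitters' processing notes, without versions; the annotation and the strand handling are not stated in what was used here. The labels give the groups and replicate numbers. Any 2 libraries within a group differed by more than counting error (chi-square per degree of freedom 20.8 to 169), so each was counted once.

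Groups were compared with edgeR 4.0.16 in R 4.3.3, by its quasi-likelihood test after TMM scaling and filterByExpr, with a robust prior, on 13688 genes and with Benjamini-Hochberg adjustment over all of them. A standard error is the log2 fold change over the root of F. Means are ± SD over 6 WT and 4 KO libraries. Exon lengths and coordinates are from GENCODE M21 (GRCm38), in which all 36 genes were found; 10 share exon bases with a gene on the other strand. Summed markers were compared on the log2(CPM + 0.5) scale. DESeq2 1.42.0 and limma 3.58.1 were alternatives. On simulated KO against WT counts (13426 genes), edgeR found 0% of the genes changed 1.5-fold, 26% of those changed 2-fold and 80% of those changed 4-fold, with 4.9% of its calls false, and DESeq2 10%, 38% and 86%, with 20.4% false. The simulation gave both groups the same spread per gene and had no outlying library, unlike these data, so its rates need not hold here.

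The members and lists were chosen with earlier results of these data known. Full values are given for members that passed the test, those whose groups did not overlap, the 12 with the smallest p and those with 1 library far from its group; of the other lists, for up to 3 genes each with the smallest p. Bcl3, Icam1 and Cxcl1 are shown by library after their values were seen.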

Additional observations from a re-analysis of the deposited data

Results flagged for a closer look

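In 7 of 72 groups of libraries (36 genes in WT and in KO), 1 library lay far from the others of its group by Dixon's test at 95%, where chance gives about 1 in 20 groups. WT replicate 2 was that library for 5 genes: Vcam1 at 27.4 CPM (the other WT libraries 5.65 to 13.6), Il1b at 4.23 CPM (0.917 to 2.05), Cxcl13 at 4.46 CPM (0.611 to 1.45), Birc3 at 12.9 CPM (7.81 to 9.32) and Nfkb2, where it was lowest, at 7.64 CPM (9.74 to 10.6). Traf1 stood out in WT replicate 5 at 0.777 CPM (0.198 to 0.382), from 9 counts. Zfp36 stood out in KO replicate 3 at 431 CPM, with the other KO libraries at 111 to 134 CPM. WT replicate 2 also had the highest summed neutrophil, Kupffer cell, B and plasma cell (mostly Jchain) and hepatocyte markers. The part of these cells in these levels was not tested.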

How the results depend on the processing

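Of the 32 tested genes, 24 kept their direction in every alternative that could measure them. The count of genes passing the test over the whole table, 182 with all libraries, was 1618 with DESeq2, 318 with limma-voom (231 higher and 87 lower, against 77 and 105), 4 without WT replicates 5 and 6 (an alternative chosen after seeing the data) and between 0 and 2893 when 1 library was left out, the latter without WT replicate 4 and at most 55 without any other. For the 36 genes described here the count was 7 with DESeq2 and between 0 and 11 when 1 library was left out. For the other pathway genes it was 12 of 60 with DESeq2, which called 11.9% of all genes, and between 0 and 12 when 1 library was left out. The 11 and 12 are without WT replicate 4, and every other library left out gave 0. Without WT replicate 4 the 11 were 37.9% of the members tested. The 12 were 20.3% of 59 pathway genes tested, near the 21.4% of all genes. The cause was not tested. With the replicate block, which uses the shared numbers 1 to 4, 1 gene of the table and none of the 36 passed, with 9 of the 32 tested (28.1%) at an unadjusted p under 0.05, against 2929 of 13688 genes (21.4%); the same-numbered libraries correlated between -0.03 and 0.18 in their deviations from the group means, and 2 of the 4 KO libraries correlated best with their own number, so the numbers were not taken as pairs. The adjusted p of Ifrd1 was 0.124 with the block and 0.0770 without WT replicates 5 and 6.

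Log2 fold changes that changed sign were near 0 or rested on a few libraries. Without WT replicates 5 and 6 that of Ccl2 was -0.0161, Cxcl1 -0.15, Cxcl13 -0.21 and Zfp36 -0.0235. With the replicate block that of Cxcl1 was -0.17 and Zfp36 -0.24, while that of Ccl9, which kept its sign, was -0.33 (-0.80 with no block). With limma-voom that of Ccl7 was 0.51 and Zfp36 -0.0046, and with upper-quartile scaling that of Il1a was 0.0156 and Ccl5 3e-04. With 1 library left out, Nfkbie ran from -0.0460 to 0.21, Il1a from -0.16 to 0.16, Ccl2 from -0.0116 to 0.53, Ccl5 from -0.25 to 0.13, Cxcl13 from -0.0941 to 0.70 and Zfp36 from -0.53 to 0.37. Traf1, Ccl5, Ccl7 and Cxcl2 were not measured in each alternative because of the filter on low counts. Depth limits Tnf, Ccl3, Ccl4 and Cxcl5, with at most 10 counts in a library.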
